A study of Gallus gallus with 32 samples.

Results

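Iron storage, export and reduction were followed in chicken blood through 3 genes, FTH1, SLC40A1 and STEAP3. They were chosen as the probe sets whose single gene symbol is 1 of these names, which gave 3 probe sets, 1 per gene, of 17894 tested, or 3 of 9683 named genes. None of the probe sets with several symbols and none of the blank rows listed any of the 3. Blood of 32 broiler chickens was profiled with 1 Affymetrix array per bird, in 4 groups of 8: males on a diet supplemented with comfrey, males on the standard control diet, females on the comfrey diet and females on the control diet. All birds shared the breed label and were labelled as whole blood cells, with RNA taken from ground clots, and every bird carried the same age label of 32 under a unit of months, which is unusual for broilers and was not used. Comfrey is a medicinal plant, and the labels state neither its dose nor the length of feeding. Values are log2 signals, so a difference of 1 is a doubling, and a level of 1 probe set is not set against that of another.

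Cells keep spare iron inside ferritin, a protein shell whose heavy chain, encoded by FTH1, oxidises ferrous iron so that it can be stored. Iron leaves cells through ferroportin, the product of SLC40A1, which in mammals is removed from the surface by the liver hormone hepcidin. Iron taken up with transferrin arrives as ferric iron, and STEAP3, a reductase of the endosome described in mouse red cell precursors, turns it into the ferrous form that can cross the membrane. In chicken blood the red cells and the thrombocytes are nucleated, so their transcripts are measured together with those of white cells, and fewer cells of a type cannot be told apart from less RNA per cell. The alpha globin gene HBAD of red cells had a mean log2 signal of 13.87 over the birds, and since array signals of different genes cannot be ranked, the makeup of the samples was not derived from it.

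Of the 3 genes, SLC40A1 was higher in males than in females, by a log2 difference of 0.54, and neither FTH1 nor STEAP3 passed the test between the sexes. Between the diets none of the 3 passed, with the largest difference at 0.28 for STEAP3. The FTH1 signal, near the upper end of the scale, hardly varied between birds, and the ranges of all 4 groups overlapped.

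**Figure D1:**
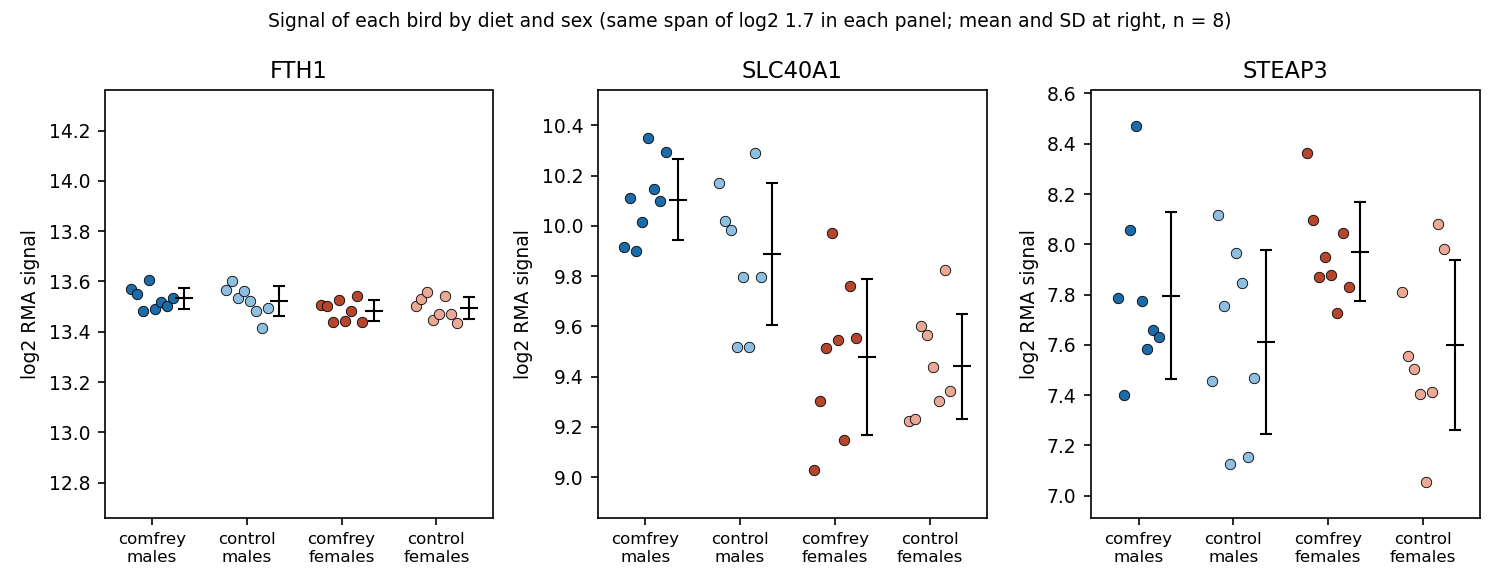
Log2 signal of FTH1, SLC40A1 and STEAP3 (vertical axes, the same span in each panel) in each of 32 birds, by diet and sex, with the mean and SD of each group of 8 at the right of its points. SLC40A1 lies higher in males than in females, at 10.00 against 9.46 on average, STEAP3 averages 7.97 in comfrey-fed females and 7.60 in control females, and FTH1 stays between 13.41 and 13.61 in all birds.

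FTH1, measured by probe set 15520607 and placed on chromosome 5, had a lowest, median and highest signal of 13.48, 13.53 and 13.61 in comfrey-fed males, and 13.41, 13.53 and 13.60 in control males. In comfrey-fed females these were 13.44, 13.49 and 13.54, and in control females 13.44, 13.49 and 13.56. The ranges of all 4 groups overlapped, with a single comfrey-fed male above the highest control bird. By sex, 5 of 16 males lay above the highest female and 1 of 16 below the lowest. On comfrey 3 of 8 males lay above every female, and 4 of 8 females lay below every male. Over 32 birds the SD was 0.049, and 4 of 17894 probe sets had a smaller one, all of them among the 30 probe sets with a mean signal of at least 13. In those 30 the SD lay between 0.041 and 0.21 with a median of 0.074, against a median of 0.24 over all probe sets. The highest value of any probe set on any array was 13.97, so FTH1 sat near the upper end of the scale, and whether saturation narrowed its range was not tested.

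For FTH1 the diet difference was -0.00030 ± 0.028 (SE, limma, adjusted p = 0.997), with a 95% interval from -0.057 to 0.056, that is from 0.961-fold to 1.04-fold. This interval is for the array signal. Probe sets with a mean signal of at least 13 had a median SD of 0.074, against 0.24 over all probe sets. Whether the scale narrows differences at such signals was not tested, so the interval does not bound the change in FTH1 RNA. The percent of all probe sets called in this comparison was 0, with 1429 probe sets at an unadjusted limma p under 0.05, so no gene was separated by diet at this threshold. It averaged 13.53 ± 0.050 in males and 13.49 ± 0.042 in females (SD, n = 16), a difference of 0.038 ± 0.028 (SE) that did not pass (limma, adjusted p = 0.559). The model across all probe sets widened this error, since an ordinary fit gave FTH1 an SE of 0.017, and a permutation of sex within diet gave an unadjusted p of 0.0307. Adjusted over the 21 such tests run on the 3 genes, that permutation p was 0.107 and did not pass. On comfrey the male minus female difference was 0.048 (exact permutation p = 0.0365, or 0.11 adjusted over the 21 tests). On control it was 0.027 (exact permutation p = 0.318, or 0.518 adjusted), and neither passed. The interaction of diet and sex was 0.021 ± 0.056 (limma, adjusted p = 0.979).

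SLC40A1, measured by probe set 15531358 and placed on chromosome 7, had a lowest, median and highest signal of 9.90, 10.11 and 10.35 in comfrey-fed males, and 9.52, 9.89 and 10.29 in control males. In comfrey-fed females these were 9.03, 9.53 and 9.97, and in control females 9.23, 9.39 and 9.82. Every one of 16 males lay above the female median of 9.47, 10 of 16 males lay above the highest female, and 9 of 16 females lay below the lowest male. The sexes still overlapped, and 14 of 16 males against 2 of 16 females lay above the median of all birds.

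SLC40A1 averaged 10.00 ± 0.25 in males and 9.46 ± 0.26 in females (SD, n = 16). The difference of 0.54 ± 0.087 (SE) passed the threshold (limma, adjusted p = 3.7e-05) and corresponds to 1.45-fold, with a 95% interval from 1.28 to 1.64. A permutation of sex within diet gave p = 1e-05, the smallest that 100000 resamples can give. In this comparison 5.35% of all probe sets were called, and among 9757 single-symbol probe sets on autosomes, where SLC40A1 lies, 2.95% were called and 1.82% were called higher in males. By unadjusted p SLC40A1 ranked 5th among those autosomal probe sets and 309th among all tested.

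The sex difference in SLC40A1 passed on both diets. On comfrey it was 0.63 ± 0.12 (SE, limma, adjusted p = 0.000913, exact permutation p = 0.000466), where 3.13% of all probe sets were called. On control it was 0.45 ± 0.12 (SE, limma, adjusted p = 0.0387, exact permutation p = 0.00466), where 2.75% were called. The control result lay near the threshold: leaving out 1 of the 32 birds put its adjusted p at 0.05 or more in 11 cases, between 0.0513 and 0.0993, each time a control bird. It was also lost with bird number as a covariate (0.40, adjusted p = 0.121), with birds 1 to 16 and 17 to 32 as a block (0.41, adjusted p = 0.115) and with only the 16 control birds in the limma fit (0.45, adjusted p = 0.0747). On comfrey the adjusted p stayed at or below 0.00343 in all 32 cases. The difference between these values, which is the interaction of diet and sex, was 0.18 ± 0.17 (SE) and did not pass (limma, adjusted p = 0.924). Of all probe sets, 0% were called for the interaction (limma, 1020 probe sets at an unadjusted p under 0.05).

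With both sexes pooled, comfrey-fed birds had an SLC40A1 mean of 9.79 ± 0.40 and control birds one of 9.66 ± 0.33 (SD, n = 16). The diet difference of 0.13 ± 0.087 (SE) did not pass (limma, adjusted p = 0.668). Comfrey-fed males averaged 10.10 ± 0.16 and control males 9.89 ± 0.28 (SD, n = 8), and all 8 comfrey-fed males lay above the control male median. Their difference was 0.22 ± 0.12 (SE, limma, adjusted p = 0.529, exact permutation p = 0.0819), and it turned in sign by bird number, at -0.11 ± 0.20 within birds 1 to 16 and 0.41 ± 0.16 within birds 17 to 32 (SE, limma, adjusted p = 1 and 0.206). Birds 1 to 16 held only 2 control males, and the negative value there was smaller than its SE. Comfrey-fed females averaged 9.48 ± 0.31 and control females 9.44 ± 0.21 (SD, n = 8), with a difference of 0.037 ± 0.12 (SE, limma, adjusted p = 0.998). By diet in males 0 probe sets were called (limma, 1850 at an unadjusted p under 0.05), and 0.00559% were called in females, which is 1 probe set that is none of the 3 genes. The order of group means was thus comfrey-fed males, control males, comfrey-fed females and control females, and the neighbours within a sex did not pass the test. Control males and comfrey-fed females, the middle neighbours, differ in both sex and diet and were not compared.

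**Figure D2:**
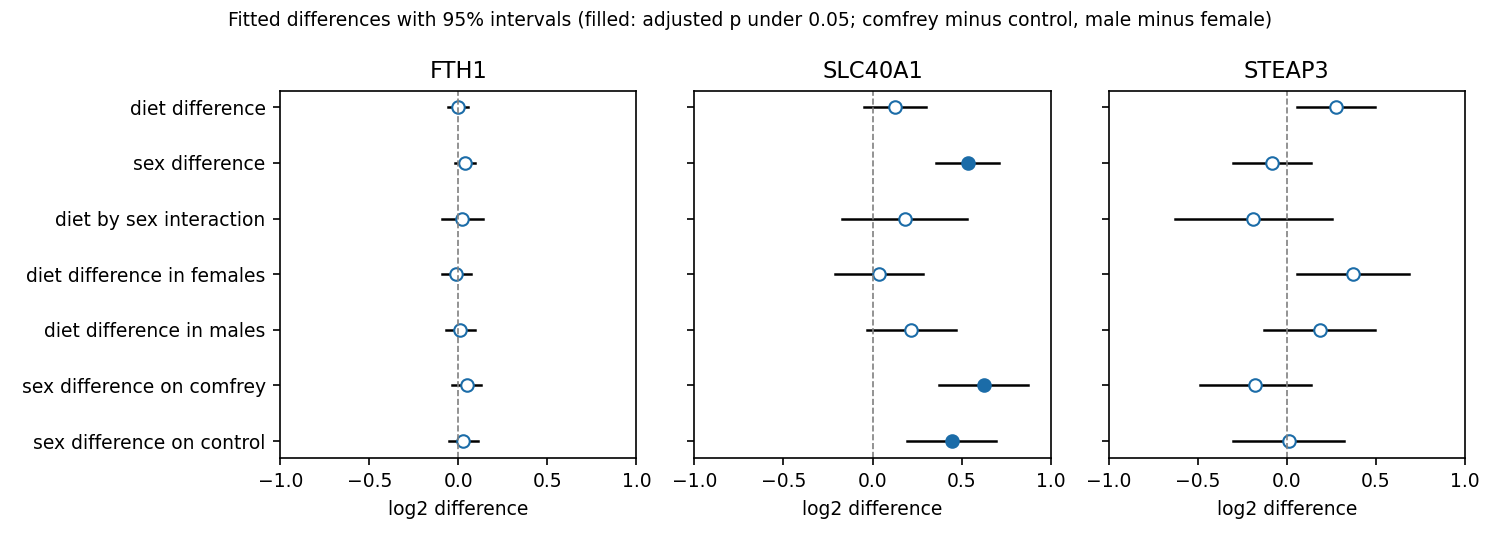
Fitted log2 differences of FTH1, SLC40A1 and STEAP3 (points) with 95% intervals (bars) in each of the comparisons by diet and sex; filled points passed an adjusted p of 0.05. SLC40A1 passed for sex over all birds (0.54) and on each diet (0.63 on comfrey, 0.45 on control), and the intervals of FTH1 are the narrowest.

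STEAP3, measured by probe set 15537677 and placed on chromosome 7, had a lowest, median and highest signal of 7.73, 7.91 and 8.36 in comfrey-fed females, and 7.05, 7.53 and 8.08 in control females. In comfrey-fed males these were 7.40, 7.72 and 8.47, and in control males 7.12, 7.61 and 8.12. All 8 comfrey-fed females lay above the median of control females, and 5 of 8 control females lay below every comfrey-fed female, while the males of both diets overlapped widely.

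Over both sexes comfrey-fed birds averaged 7.88 ± 0.28 for STEAP3, against 7.61 ± 0.34 in control birds (SD, n = 16), and 15 of 16 comfrey-fed birds lay above the control median. The difference of 0.28 ± 0.11 (SE), or 1.21-fold with a 95% interval from 1.04 to 1.41, did not pass over all probe sets (limma, adjusted p = 0.614). A permutation of diet within sex gave an unadjusted p of 0.0181, which was 0.0759 when adjusted over the 21 tests on these genes and did not pass. An unadjusted limma p under 0.05 was reached by STEAP3 and by 7.99% of all probe sets. In females the difference was 0.37 ± 0.15 (SE, limma, adjusted p = 0.998). Its exact permutation p was 0.0169, or 0.0759 adjusted over the 21 tests. In males the difference was 0.18 ± 0.15 (SE, limma, adjusted p = 0.655, exact permutation p = 0.31). The female difference turned in sign by bird number, at 0.61 ± 0.20 within birds 1 to 16 and -0.16 ± 0.21 within birds 17 to 32 (SE, limma, adjusted p = 0.865 and 0.915). Birds 17 to 32 held only 2 control females, and the negative value there was smaller than its SE. The interaction of diet and sex was -0.19 ± 0.22 (SE, limma, adjusted p = 0.933), so a different response of the sexes was not shown. By sex STEAP3 averaged 7.70 ± 0.35 in males and 7.79 ± 0.33 in females (SD, n = 16), a difference of -0.082 ± 0.11 (SE, limma, adjusted p = 0.783).

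The titles number the birds, without saying what the numbers stand for, and these numbers were unevenly spread over the groups. Birds 1 to 16 held 4 comfrey-fed males, 2 control males, 4 comfrey-fed females and 6 control females, and birds 17 to 32 held 4, 6, 4 and 2. The difference between birds 17 to 32 and birds 1 to 16, with diet and sex held, was -0.046 ± 0.029 for FTH1, 0.063 ± 0.093 for SLC40A1 and -0.060 ± 0.12 for STEAP3 (SE, limma, lowest adjusted p = 0.388), where 3.04% of all probe sets were called. For SLC40A1 the male minus female difference was 0.60 ± 0.12 within birds 1 to 16 (SE, limma, adjusted p = 0.00751) and 0.51 ± 0.14 within birds 17 to 32 (SE, limma, adjusted p = 0.085). Among control birds alone it was 0.70 ± 0.19 in birds 1 to 16, with 2 males, and 0.23 ± 0.20 in birds 17 to 32, with 2 females, and neither passed (limma, adjusted p = 0.116 and 0.606). For STEAP3 the comfrey minus control difference was 0.45 ± 0.16 within birds 1 to 16 and 0.013 ± 0.12 within birds 17 to 32 (SE, limma, adjusted p = 0.954 and 0.985). The diet difference of STEAP3 in birds 17 to 32 minus that in birds 1 to 16 was -0.40 ± 0.23 (SE) and did not pass (limma, adjusted p = 1), with 0% of probe sets called.

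**Figure D3:**
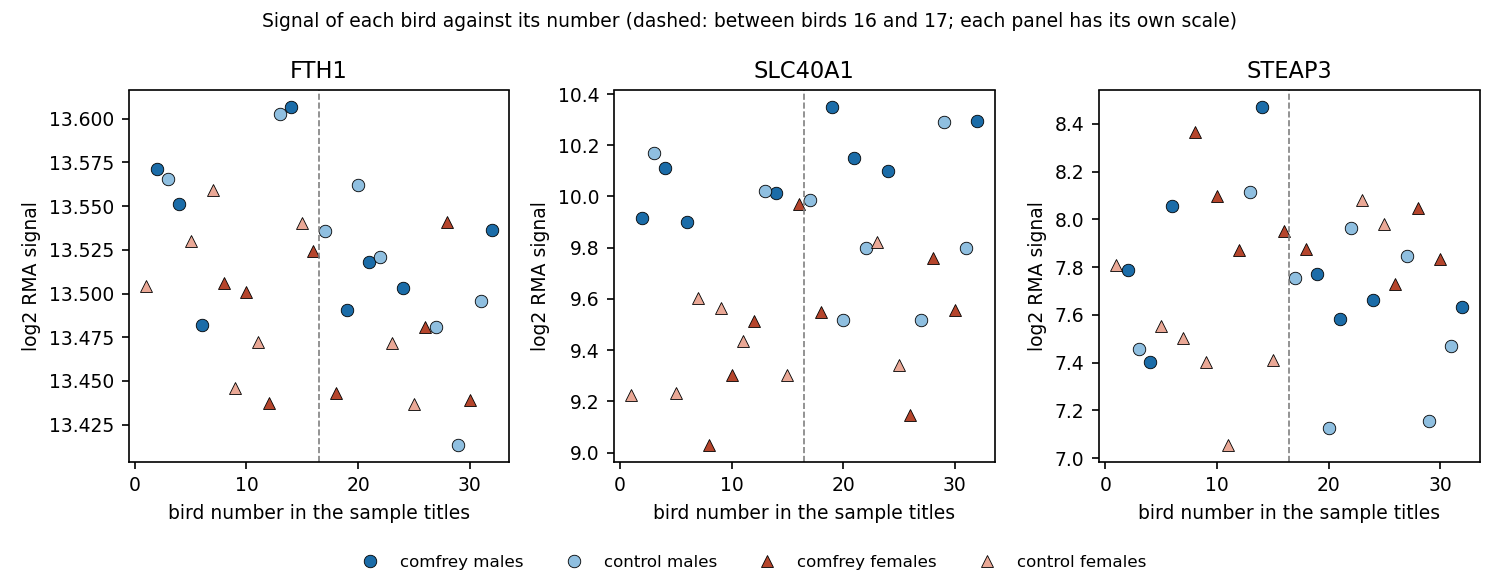
Log2 signal of each gene (vertical axes, each on its own scale) against bird number, by diet and sex, with a dashed line between birds 16 and 17. Males lie above females in SLC40A1 on average on both sides of the line, and the fitted comfrey minus control difference in STEAP3 is 0.45 left of it and 0.013 right of it.

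Cell marker lists were scored as the mean over list genes of signals standardized across birds, which reads transcripts and not cell counts. The marker lists were chosen with earlier results of these data known, so a sign shared within a list is a description. Of 8 listed thrombocyte markers 6 were measured, and all 6 had a positive male minus female difference, the sign of SLC40A1. Their median was 0.65, against -0.025 over all probe sets. Of the 6, 2 passed, where 5.35% of all probe sets were called, the integrin gene ITGB3 at 0.74 ± 0.22 and the platelet glycoprotein gene GP1BB at 0.49 ± 0.15 (SE, limma, adjusted p = 0.0418 and 0.0385). GP9, F13A1, TUBB1 and THBS1 did not pass, at 0.88, 0.69, 0.62 and 0.034 (limma, adjusted p = 0.176, 0.202, 0.144 and 0.904). The summed log2 signal of the 6 ran from 9.86 to 12.46 in males and from 9.93 to 11.40 in females. THBS1 had a mean signal of 5.25, below every array median. Within birds 1 to 16 the thrombocyte score ran from -1.20 to 0.16 in 6 males and -1.08 to 0.0059 in 10 females. Within birds 17 to 32 it ran from -0.50 to 1.87 in 10 males and -0.44 to 0.39 in 6 females. In birds 1 to 16 the score ranges of the sexes thus nearly coincided, and the highest scores were those of males in birds 17 to 32. SLC40A1 differed between the sexes by 0.60 ± 0.12 within birds 1 to 16 and by 0.51 ± 0.14 within birds 17 to 32 (SE). The marker differences between the sexes were not tested within these sets of birds. With group means subtracted, SLC40A1 and the thrombocyte score had a Pearson r of 0.011 and a Spearman rho of 0.017 (32 birds, permutation p = 0.952 and 0.928, adjusted p = 0.952 and 0.966). That r was 0.075 without the 2 birds farthest from the median score, -0.28 over birds 1 to 16 and 0.086 over birds 17 to 32. By group its sign differed, at 0.75 in comfrey-fed males, -0.31 in control males, -0.29 in comfrey-fed females and 0.18 in control females, with 8 birds each and no test. Without subtraction r was 0.29 and rho 0.21 (permutation p = 0.104 and 0.239, adjusted p = 0.374 and 0.547).

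Other marker lists differed less between the sexes in their medians. The median male minus female difference was 0.030 in 5 measured monocyte and macrophage markers and 0.0026 in 7 erythroid markers. Of the erythroid differences 4 were positive and 3 negative, from -0.44 for HBE to 0.28 for SLC4A1 (limma, adjusted p = 0.39 and 0.151). Of these genes 1 passed, TAL1, a transcription factor of early blood cells, at -0.39 ± 0.11 (SE, limma, adjusted p = 0.0278). The summed monocyte and macrophage signal ran from 9.31 to 10.17 in males and from 9.12 to 10.30 in females. MARCO, LY86 and MRC1 of these 5 markers had mean signals of 6.22, 5.86 and 4.00, below every array median, and counted in the score like the others. In 4 heterophil, 5 T cell, 4 B cell and 4 cell division markers 0 genes passed, with medians of 0.13, 0.11, -0.069 and 0.11. All 4 heterophil differences were positive, as in the thrombocyte list, the largest being CSF3R at 0.20 ± 0.067 (SE, limma, adjusted p = 0.0943). LYZ and SERPINB10B of this list had mean signals of 5.84 and 5.74, below every array median. The summed heterophil signal ran from 8.98 to 9.48 in males and from 8.62 to 9.39 in females. The part of these cells in the SLC40A1 difference was not tested.

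Each gene was then set against each of 7 marker scores and against the other members, which gave 24 relations, each with and without subtraction of the group means, or 48 tests. FTH1 followed the erythroid score, with a Pearson r of 0.59 and a Spearman rho of 0.63 over 32 birds (permutation p = 0.00037 and 0.00017, adjusted p = 0.00888 and 0.00408). With group means subtracted these were 0.66 and 0.65 (adjusted p = 0.00144 and 0.00408), with the same sign in each of the 4 groups. Without control males 29 and 31, the birds farthest from the median score, the r over all birds was 0.56. Over birds 1 to 16 the r was 0.65 and over birds 17 to 32 it was 0.57. After subtraction it was 0.74 and 0.63 in these sets of birds. FTH1 ran against the thrombocyte score once group means were subtracted, at an r of -0.53 and a rho of -0.52 (adjusted p = 0.029 and 0.0448), but not over all birds, at -0.27 and -0.28 (adjusted p = 0.387 and 0.397). The r with group means subtracted was -0.49 without the 2 birds farthest from the median score, -0.39 over birds 1 to 16 and -0.29 over birds 17 to 32. It was positive, at 0.12, among comfrey-fed females.

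Within the erythroid list the genes did not all follow FTH1. With group means subtracted, r was 0.76 for RHAG, a membrane protein of red cells, 0.61 for EPB42, a part of their membrane skeleton, 0.61 for the globin gene HBA1 and 0.54 for HBAD. It was 0.34 for SLC4A1, the anion exchanger of red cells, 0.20 for TAL1 and 0.086 for HBE. Among the measured iron genes, grouped by role below, r with FTH1 reached 0.68 for TFRC, 0.61 for IREB2, 0.60 for NFS1 and 0.59 for EPAS1. It was -0.52 for FBXL5 and -0.50 for NFE2L2. The central range of r for FTH1 over single-symbol probe sets, described below, ran from -0.50 to 0.50. The permutation tests did not compare the scores with this range, so a link of FTH1 to a particular cell type was not tested. The summed erythroid log2 signal ran from 14.95 to 15.40 in males and from 15.03 to 15.28 in females. Neither SLC40A1 nor STEAP3 had a relation with any of the 7 scores that passed, the nearest being STEAP3 with the monocyte and macrophage score after subtraction, at an r of -0.41 and a rho of -0.46 (permutation, adjusted p = 0.195 and 0.101). For SLC40A1 the nearest was the heterophil score over all birds, at an r of 0.39 and a rho of 0.355 (permutation, adjusted p = 0.226 and 0.347). That r was 0.55 over birds 1 to 16 and 0.029 over birds 17 to 32, and between 0.20 and 0.42 in the 4 groups. With group means subtracted it was 0.29 (permutation, adjusted p = 0.374). For the single heterophil genes r with SLC40A1 was then 0.45 for CSF3R, 0.25 for AvBD1, 0.057 for SERPINB10B and 0.040 for LYZ. Without subtraction these were 0.62, 0.28, 0.12 and 0.068, and none of them was tested. No relation among the 3 genes passed: over all birds r was 0.25 for FTH1 with SLC40A1, 0.13 for FTH1 with STEAP3 and -0.10 for SLC40A1 with STEAP3 (permutation, lowest adjusted p = 0.4).

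**Figure D4:**
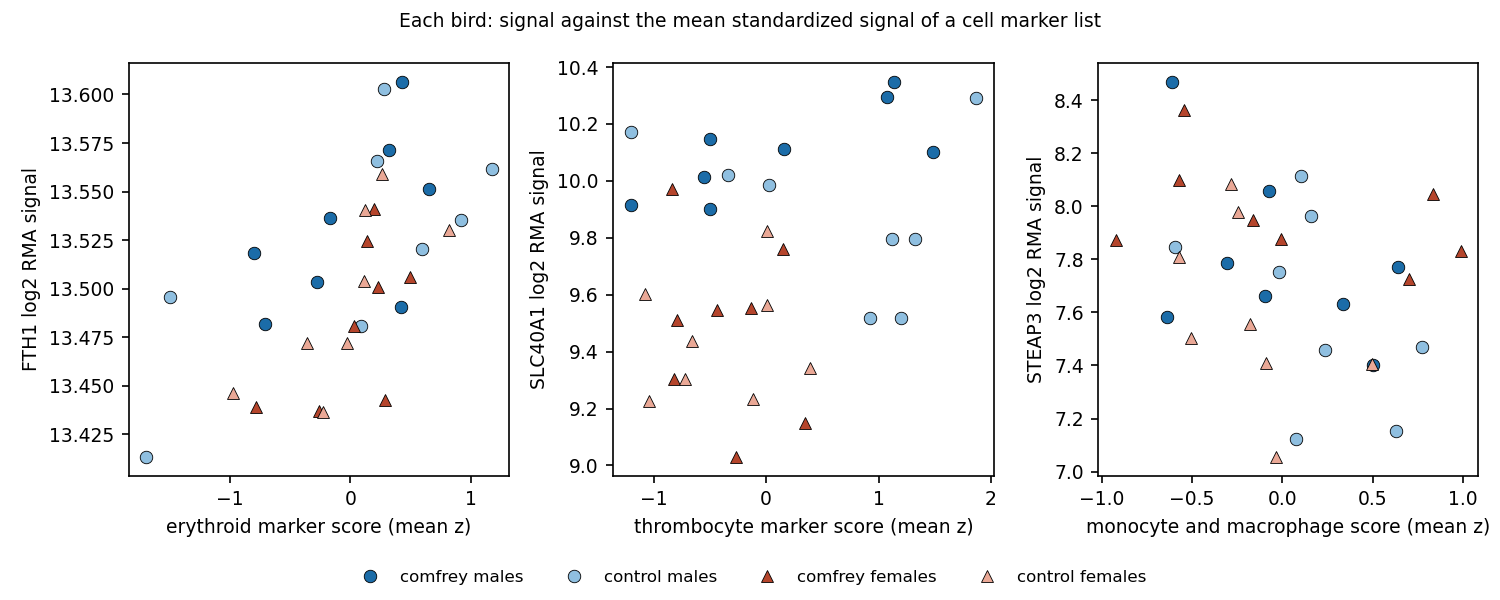
Log2 signal of FTH1 against the erythroid score, of SLC40A1 against the thrombocyte score and of STEAP3 against the monocyte and macrophage score (means of standardized marker signals), with 1 point per bird by diet and sex. FTH1 is higher in birds with a higher erythroid score (r = 0.59), and r is 0.29 for SLC40A1 with the thrombocyte score and -0.34 for STEAP3 with the monocyte and macrophage score.

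The genes whose signal was most like each member over the 32 birds were ranked among 10264 single-symbol probe sets, after subtraction of the group means. For FTH1 they were TPT1, an abundant cytosolic protein gene, MAST2, RHAG, FEM1A and ESAM, a cell adhesion gene, with r between 0.76 and 0.80, where the central 95% of all probe sets lay between -0.50 and 0.50. Without subtraction r was 0.81 for TPT1, 0.77 for MAST2, 0.75 for RHAG, 0.37 for FEM1A and 0.60 for ESAM. FEM1A was itself lower in males, with a male minus female difference of -0.17 (limma, adjusted p = 0.0488). For SLC40A1 they were CIR1, TMEM255B, CXCR1, a chemokine receptor of granulocytes, RAB3C and GNL3, with r between 0.57 and 0.66 against a central range from -0.35 to 0.37. Without subtraction these r were 0.37, 0.59, 0.74, 0.79 and 0.32. RAB3C, which lies on the Z chromosome, and CXCR1 were themselves higher in males, by 0.72 and 0.28 (limma, adjusted p = 7.4e-05 and 0.0312). TMEM255B had a mean signal of 4.76, below every array median. For STEAP3 they were PCYT2, an enzyme gene of phosphatidylethanolamine synthesis, PROSC, UBQLN4, EIF2B4, a subunit gene of a translation initiation factor, and ROGDI, with r between 0.72 and 0.77 against a central range from -0.47 to 0.50. Birds of 1 array each share signal scaling and cell makeup, so these r are descriptions.

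Beside the 3 members, 59 other iron genes were listed in 6 groups by role and 35 were measured. None passed by diet, where 20 of 35 differences were positive with a median of 0.011, against -0.0062 over all probe sets. By sex 1 of 35 passed, against 5.35% of all probe sets, and 17 of 35 were positive with a median of -0.00064, against -0.025 over all probe sets. That gene was ISCA1, which assembles iron-sulphur clusters and lies on the Z chromosome, of which males carry a pair and females a single copy. ISCA1 averaged 11.56 ± 0.091 in males and 10.83 ± 0.12 in females (SD, n = 16), a difference of 0.73 ± 0.042 (SE, limma, adjusted p = 3.28e-15). None passed for the interaction. An unadjusted p under 0.05 was found for 2 of the 35 by diet, 6 by sex and 1 for the interaction, where 7.99%, 16.5% and 5.7% of all probe sets had one.

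Of the storage genes beside FTH1 none passed by diet. All 5 measured genes of the list, FTH1 included, lay on the negative side, as did the median of all probe sets, at -0.0062. The list median was -0.0052, and FTH1 and TIMD4, also of this list, lay at -0.00030 and -0.00068. A joint change of the storage genes was not tested. NCOA4, the receptor that delivers ferritin to lysosomes, differed by -0.0052 ± 0.057, PCBP2, a cytosolic iron chaperone, by -0.055 ± 0.035 and SCARA5, a ferritin receptor, by -0.070 ± 0.076 (SE). Among the reductases and oxidases FRRS1, a ferric reductase, differed by 0.15 ± 0.068 and HEPHL1, a copper-containing iron oxidase, by -0.30 ± 0.21 (SE, limma, adjusted p = 0.619 and 0.671). Neither passed, and STEAP1, of the same family as STEAP3, lay at -0.12. HEPHL1 and STEAP1 had mean signals of 5.17 and 4.37, below every array median. So did SCARA5 and, among the genes named below, SLC11A1, ACO1, TMPRSS6, BMP6, NEO1 and HPX have mean signals under every array median. HEPH, the oxidase hephaestin, differed by -0.013 between males and females.

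Among uptake and export genes SLC40A1 alone passed by sex. TFRC, the transferrin receptor, differed by 0.013 ± 0.078 between males and females, SLC25A37, the mitochondrial iron importer mitoferrin-1, by 0.36 ± 0.13, and MCOLN1, a lysosomal channel that can pass iron, by 0.22 ± 0.068 (SE, limma, adjusted p = 0.0562 for MCOLN1 and 0.113 for SLC25A37). SLC25A37 averaged 8.87 ± 0.28 in comfrey-fed males and 8.87 ± 0.24 in comfrey-fed females (SD, n = 8). On control it averaged 9.34 ± 0.44 in males and 8.62 ± 0.32 in females (SD, n = 8). Its interaction of diet and sex was -0.72 ± 0.23 (SE) and did not pass (limma, unadjusted p = 0.00322, adjusted p = 0.834). MCOLN1 averaged 8.07 ± 0.18 in males and 7.85 ± 0.19 in females (SD, n = 16), and its adjusted p fell below 0.05 in 7 of 41 alternative fits. By diet SLC25A28, the related mitoferrin-2 gene, differed by 0.13 ± 0.061 and SLC11A1, a metal transporter of phagosomes, by -0.42 ± 0.25 (SE), and neither passed (limma, adjusted p = 0.619 and 0.646).

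Among sensors and regulators none of 9 measured genes passed. ACO1, the iron regulatory protein 1 gene, which lies on the Z chromosome, differed by 0.21 ± 0.14 between males and females and TMPRSS6, a protease that in mammals lowers hepcidin, by -0.15 ± 0.075 between comfrey and control (SE, limma, adjusted p = 0.477 and 0.621). IREB2, the iron regulatory protein 2 gene, differed by -0.068 ± 0.038 between males and females and by 0.055 ± 0.038 between comfrey and control (SE, limma, adjusted p = 0.391 and 0.669). BMP6, a signal that raises hepcidin in mammals, differed by -0.14 ± 0.094 between males and females, and NEO1, a co-receptor of that pathway, by 0.045 ± 0.056 between comfrey and control (SE). Among haem genes HPX, the haem carrier haemopexin, differed by -0.15 and ABCG2, a haem and drug exporter, by 0.39 ± 0.26 between males and females. SLC48A1, a haem transporter, differed by 0.099 ± 0.077 between males and females and by 0.076 ± 0.077 between comfrey and control (SE). Of the iron-sulphur genes ISCU differed by 0.14 ± 0.052 and GLRX5 by 0.14 ± 0.058 between males and females (SE, limma, adjusted p = 0.116 and 0.181), and ISCA2 by 0.084 ± 0.065 between comfrey and control (SE).

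**Figure D5:**
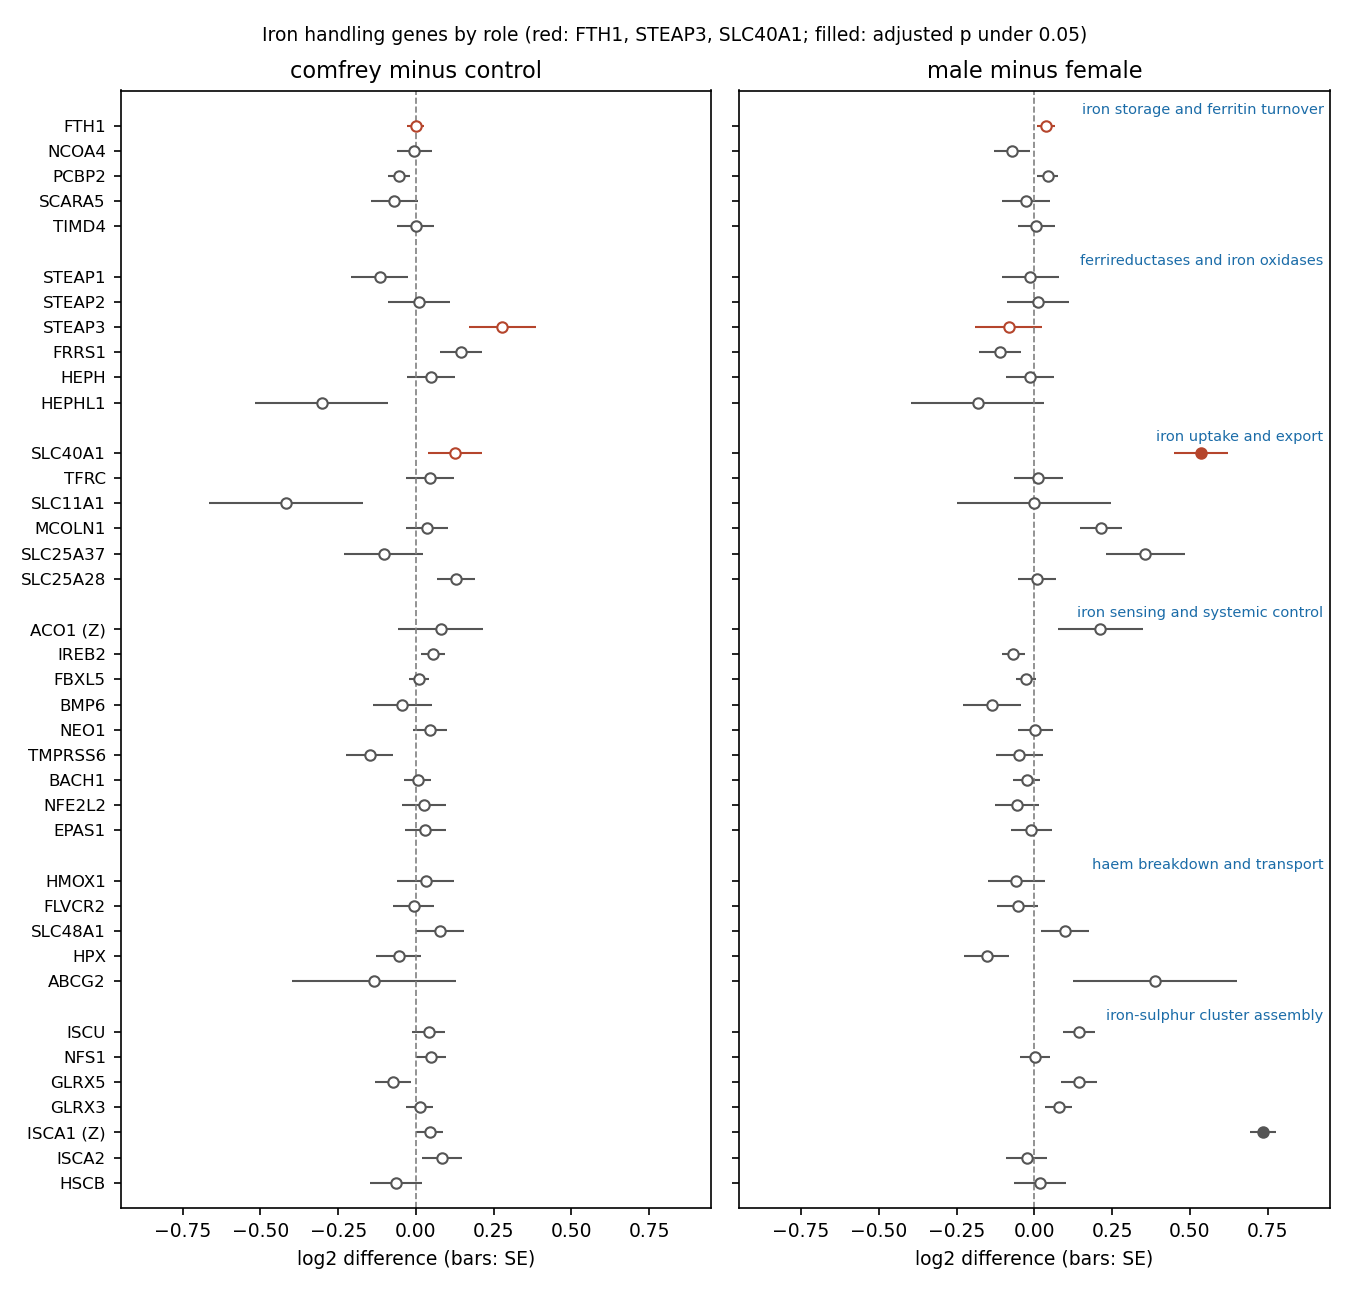
Log2 differences of FTH1, STEAP3 and SLC40A1 (red) and of 35 other measured iron genes, between comfrey and control (left) and between males and females (right), grouped by role; bars are SE and filled points passed an adjusted p of 0.05. No gene is filled by diet, and by sex SLC40A1 (0.54) and the Z-linked ISCA1 (0.73) are filled.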

How the data were processed

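Blood RNA of 32 broilers, 1 array per bird, was measured on Affymetrix chicken gene arrays. The deposited values are log2 signals per probe set, made by the authors with GCOS 1.1.1 and RMA per the submitters' processing notes; the log base was read from the values. RMA background-corrects, quantile-normalizes and summarizes probes, so signal shifts shared by whole arrays are removed. Of 20804 rows, 2910 were blank in every array, and 17894 were tested. Array medians lay between 6.51 and 6.60. Precision is limited by how many arrays there are.

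Groups came from the sample labels. limma 3.58.1 in R 4.3.3 fitted all probe sets with diet and sex, or with a mean per group for the interaction and the differences within a sex or diet, followed by empirical Bayes and Benjamini-Hochberg adjustment over all probe sets; a call is an adjusted p below 0.05. Single values were also tested by two-sided permutation (numpy 2.4.6), with 100000 resamples, or exactly over the 12870 splits of 8 against 8. Ranks for Spearman rho came from scipy 1.17.1. The method was tested on simulated data over 17894 probe sets: it recovered 66% of differences of 0.5 and 18% of differences of 0.25 for diet, and 68% and 30% for sex. The simulated noise was normal and independent between probe sets, while real arrays share cell makeup, so these percents need not hold for these data. The simulation also held differences of 0.75 and 1, and the Benjamini-Hochberg threshold is milder where more differences exist. In the real diet comparison 0 probe sets were called, so fewer diet differences of these sizes may be recovered there.

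Names came from the platform annotation, with 9770 single-symbol probe sets matched by gene ID to RefSeq (GRCg7b), 474 by symbol and 20 unmatched; no coordinates were used. A gene with several probe sets was read from the one with the highest mean signal. The members and lists were chosen with earlier results of these data known. Iron genes to be named were, per list, the 3 with the smallest unadjusted p for diet and the 3 for sex, and any gene called; the 5 genes most like each member were named by r. Markers were named from the marker lists. Each array is a separately numbered bird. The p-values rest on the spread between birds, which limma shares in part across all probe sets. Alternatives changed the scaling, filter, spread model, array weights, repeated rows, bird number and the birds included. The difference between sets of birds by number, its interaction with diet and the relations within sets were added after seeing the data.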

Additional observations from a re-analysis of the deposited data

How the results depend on the processing

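Of 894 alternative values of the 21 diet, sex and interaction differences of the 3 genes, 50 had the opposite sign; none of these belonged to a difference that passed, and the lowest adjusted p among them was 0.273. By bird number, the interaction of SLC40A1 was -0.17 within birds 1 to 16 and that of STEAP3 0.27 within birds 17 to 32, and the sex difference of STEAP3 on control was -0.48 within birds 17 to 32. The sex difference of SLC40A1 passed in 41 of 42 alternatives, and was 0.51 within birds 17 to 32, where it did not pass (limma, adjusted p = 0.085); leaving out each bird in turn kept it between 0.50 and 0.57. On comfrey it passed in 42 of 43, and not within birds 1 to 16, at 0.53 (adjusted p = 0.184). On control it passed in 27 of 43. There it was 0.40 with bird number as a covariate (adjusted p = 0.121), 0.41 with the numbered sets as a block (0.115), 0.70 within birds 1 to 16 (0.116), 0.23 within birds 17 to 32 (0.606) and 0.45 with only the 16 birds of the comparison (0.0747). Leaving out each bird in turn gave 0.39 to 0.50, and the call was lost without control birds 1, 3, 5, 11, 13, 15, 17, 22, 25, 29 or 31. Fits within a set of birds hold fewer samples; the cause of the other losses was not tested. All other diet, sex and interaction differences of the 3 genes kept their side of the threshold, while the relation of FTH1 with the thrombocyte score passed only with group means subtracted (r = -0.53, adjusted p = 0.029). For STEAP3, leaving out each bird in turn kept the diet difference between 0.23 and 0.32 (adjusted p between 0.439 and 0.799).

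The number of probe sets called by sex was 477 within birds 1 to 16 and 412 within birds 17 to 32, against 958 over all birds. On comfrey it was 239 within birds 1 to 16, against 560, and on control 206 and 250 within the same sets, against 492. For the interaction 19 were called within birds 17 to 32, and 0 to 1 with each bird left out, against 0 over all birds (limma, 1020 at an unadjusted p under 0.05). For diet in females 0 were called with only the brighter probe sets, within birds 1 to 16 and with only the 16 birds of the comparison, and 0 to 3 with each bird left out, against 1. No other probe sets of the 3 genes exist among those tested, so that alternative was not run. No paired analysis was possible because each bird number belongs to a single bird.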
